A study of Homo sapiens with 6 samples.

Results

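Nuclear genes of the mitochondrial respiratory chain, the ATP synthase, the mitochondrial ribosome and the protein import machinery were compared between Caco-2 cells taken through hypoxia and then reoxygenation (H/R, 3 samples) and control Caco-2 cells (3 samples). Caco-2 is a human colorectal adenocarcinoma line that serves as a stand-in for intestinal epithelium, and the labels give all 6 samples the same wild-type genotype. The members are the 41 genes with a row whose symbol starts with NDUF, UQCR, UQCC, COX, SDH, ATP5, MRPL, MRPS, TIMM or TOMM, out of 2257 rows in all, of which 2188 carry a gene symbol. Poly(A) RNA was measured by paired-end sequencing, and levels are in FPKM, which divides fragments by transcript length and by sequencing depth. The sources used here do not give the reoxygenation time of the sequenced cells. The study's methods mention control or TMEM2 siRNA for sequenced H/R cells, and from the labels it cannot be told if these samples had been transfected.

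The rows themselves appear to have been selected on the same comparison. In 92.3% of the 2184 rows with both means above 0, the mean FPKM of H/R and control differed at least 2-fold, a share that marks the rows as chosen by their change. The sources used here do not state the rule. Differences between H/R and control are therefore given as a description, with no p-value for single members. A member was called where limma's adjusted p, taken over the 2034 rows tested, was under 0.05. Among the members called lower, the mean ratios closest to the edge of the selection were 1.84-fold in TIMM8B, 1.86-fold in NDUFC1 and 1.89-fold in UQCC3. Genes with no row were not analysed here. No source states that replicates were separate cultures, so the errors and the calls reflect how far these samples differed, a spread that may be technical. Depth is unknown, because the table holds no counts.

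Oxidative phosphorylation moves electrons from NADH and succinate through complexes I, II, III and IV to oxygen while protons are pumped out of the matrix, and the ATP synthase uses the returning protons to make ATP. Most subunits are encoded in the nucleus and imported through the TOM complex of the outer membrane and the TIM complexes of the inner membrane. A small core is encoded by mitochondrial DNA and translated on the mitoribosome, whose proteins are nuclear as well. Low oxygen is known to turn cells from respiration toward glycolysis, and HIF targets such as PDK1 and BNIP3 take part in that switch. Many promoters of these nuclear genes are known to carry sites for the transcription factors NRF1, GABPA (an ETS factor) and YY1.

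After H/R, 39 of the 41 members were called lower, 1 was called higher (TOMM20) and 1 was not called (ATP5MPL). Over all rows tested, 52.9% were called lower and 46.1% higher. Of the members, 32 were at least 2-fold lower on the log2(FPKM + 1) scale, against 40.1% of all rows tested. The median log2 difference, H/R minus control, was -1.15 over the members and -0.80 over all rows tested, and among the rows called lower the medians were -1.16 for the members and -1.17 for the table. As ratios of mean FPKM, with no pseudocount, the rows called lower were lower by a median of 2.29-fold for the members and 2.51-fold for the 1075 such rows of the table with a mean above 0 in H/R. In 39 members every H/R sample lay below every control sample, an arrangement found in 52% of all rows tested. In bulk RNA, fewer cells of a type and less RNA per cell cannot be told apart, and FPKM gives the share of a gene in the measured RNA, not its amount per cell. When libraries were scaled by the median of ratios over the table, where the log2 scale factor of H/R minus control was -0.51, 32 members were called lower, and the calls of TIMM8B, NDUFC1, TIMM17B, UQCC3, NDUFB10, MRPL34 and MRPS28 ended. Over all rows tested, 856 were then called lower and 948 higher, against 1076 lower and 937 higher without rescaling, so the lower calls were no longer the more frequent ones. At least 2-fold lower were then 6 members, and 14 with libraries scaled to equal totals (log2 factor -0.35). Every one of the 41 differences kept its sign under both scalings. Over all rows tested, 816 were at least 2-fold lower and 707 at least 2-fold higher, against 257 and 922 by the median of ratios and 386 and 897 with equal totals.

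**Figure D1:**
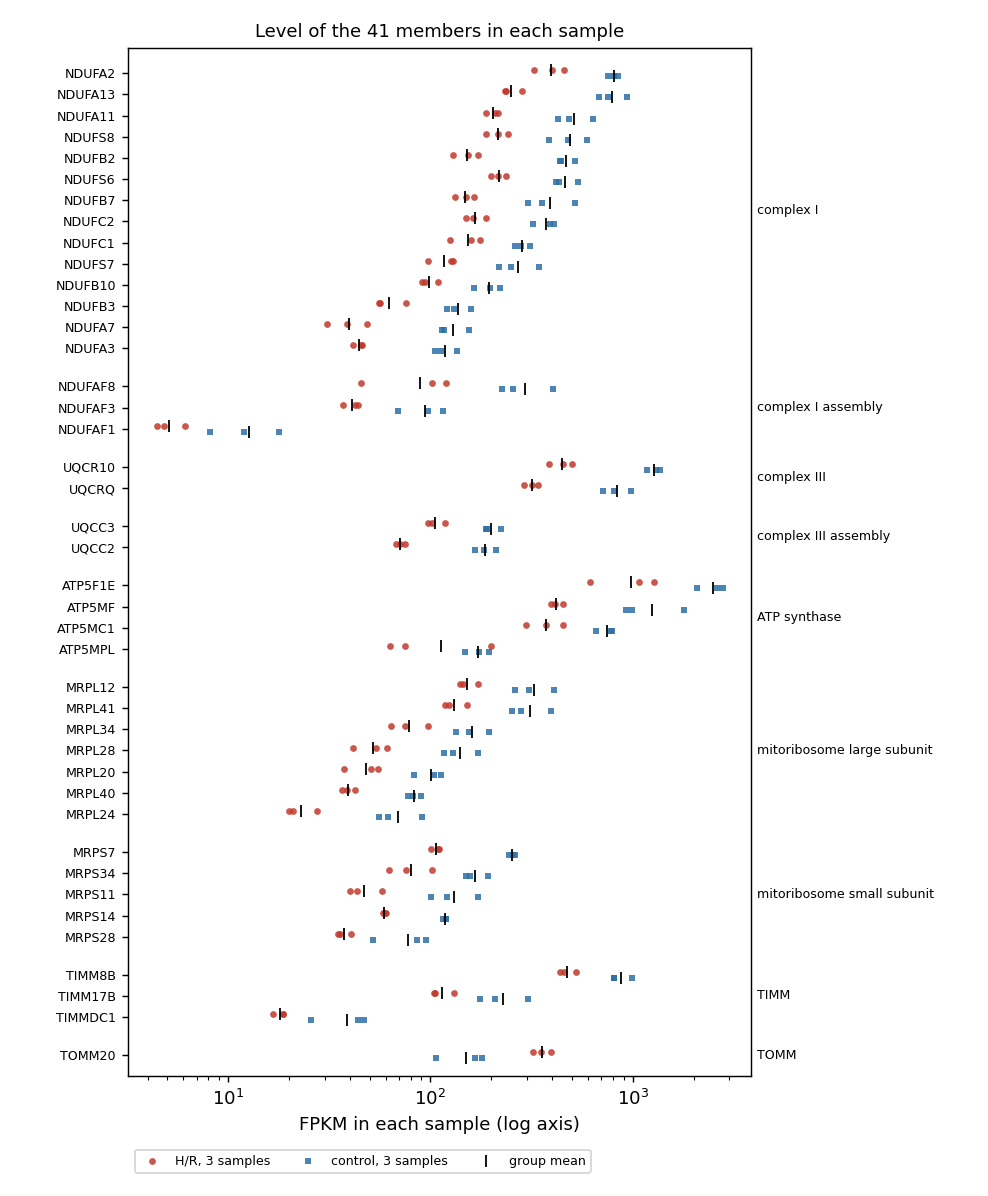
FPKM of the 41 members in each of the 6 samples on a log axis, by complex, with H/R as red circles, control as blue squares and the group means as black ticks. The H/R and control samples are apart in 40 members, with H/R on the left except in TOMM20, and they mix in ATP5MPL alone.

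The families were unequally represented in the table. Set against the protein-coding genes with the same prefixes in the RefSeq gene table, 14 of 37 complex I subunit genes, 3 of 8 complex I assembly genes, 2 of 9 complex III genes and 2 of 6 UQCC genes had a row. For the ATP synthase 4 of 19 genes had a row, for the large mitoribosome subunit 7 of 49, for the small subunit 5 of 28, for TIMM 3 of 16 and for TOMM 1 of 10. Complex II, with its assembly genes, had 0 of 8 and complex IV, with its assembly genes, had 0 of 29 among the rows analysed here. In all, 41 of 219 genes (18.7%) had a row, against 10.5% of the 19774 protein-coding genes. That background counts every protein-coding gene, whether or not Caco-2 cells express it, while the members were highly expressed among these rows. The shares were not matched for expression, so they do not show that these families were favoured over other expressed genes. Having a row rests on the same comparison as the levels, so these shares describe the selection and were not tested.

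**Figure D2:**
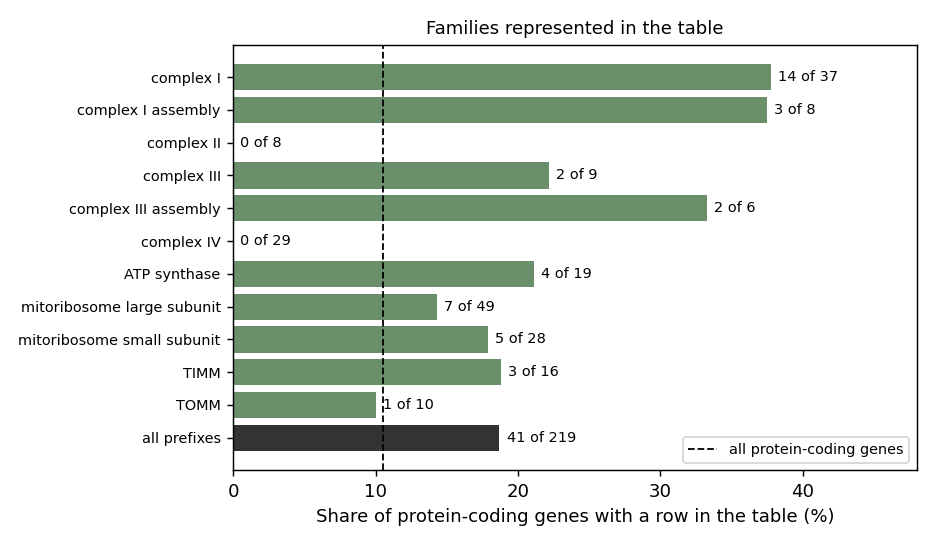
Share of the protein-coding genes of each prefix family that had a row in the table, with the number of genes beside each bar. The dashed line is the share over all protein-coding genes (10.5%), whether or not Caco-2 cells express them. Complex I and its assembly genes reach 37.8% and 37.5%, and complex II and complex IV have no bar.

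The promoters of 5 members are shown because they carry letters that NRF1, ETS factors or YY1 are known to bind, in the member that was higher after H/R and in 4 that were lower. They are RefSeq windows on GRCh38.p14 from 250 bases before to 50 bases after the annotated start, written in the direction of the gene, with matches to GCGCANGC (NRF1), CCGGAAG (ETS) and AAGATGG (YY1) on either strand in capitals. The build of the deposited values is not known, and the windows were matched by gene symbol. TOMM20 lies at chr1:235128788-235129087 on the minus strand, NDUFA13 at chr19:19515975-19516274 on the plus strand, UQCR10 at chr22:29767119-29767418 on the plus strand, UQCC2 at chr6:33711651-33711950 on the minus strand and MRPL20 at chr1:1407244-1407543 on the minus strand.
TOMM20: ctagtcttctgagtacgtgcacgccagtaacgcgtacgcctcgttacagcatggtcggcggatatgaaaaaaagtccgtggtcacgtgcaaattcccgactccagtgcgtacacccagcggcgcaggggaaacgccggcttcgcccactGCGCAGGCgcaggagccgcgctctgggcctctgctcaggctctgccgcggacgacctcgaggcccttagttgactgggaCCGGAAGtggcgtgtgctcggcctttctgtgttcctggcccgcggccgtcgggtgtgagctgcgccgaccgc
NDUFA13: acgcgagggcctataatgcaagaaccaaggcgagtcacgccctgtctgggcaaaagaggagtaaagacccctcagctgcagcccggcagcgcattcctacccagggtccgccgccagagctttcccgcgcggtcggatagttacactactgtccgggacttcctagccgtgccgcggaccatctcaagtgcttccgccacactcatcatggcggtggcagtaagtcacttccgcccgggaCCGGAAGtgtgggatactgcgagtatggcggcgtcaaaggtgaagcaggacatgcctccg
UQCR10: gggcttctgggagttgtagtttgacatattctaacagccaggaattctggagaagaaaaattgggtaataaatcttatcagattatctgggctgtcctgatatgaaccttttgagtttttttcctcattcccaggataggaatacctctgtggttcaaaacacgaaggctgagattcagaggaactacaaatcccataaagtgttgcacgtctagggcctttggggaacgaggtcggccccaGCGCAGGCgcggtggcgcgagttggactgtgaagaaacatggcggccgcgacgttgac
UQCC2: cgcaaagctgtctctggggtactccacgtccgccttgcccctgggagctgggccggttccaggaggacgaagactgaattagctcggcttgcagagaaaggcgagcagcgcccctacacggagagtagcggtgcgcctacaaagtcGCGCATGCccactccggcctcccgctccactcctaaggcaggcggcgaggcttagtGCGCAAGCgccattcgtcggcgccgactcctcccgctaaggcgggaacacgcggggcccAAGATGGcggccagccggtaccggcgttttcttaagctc
MRPL20: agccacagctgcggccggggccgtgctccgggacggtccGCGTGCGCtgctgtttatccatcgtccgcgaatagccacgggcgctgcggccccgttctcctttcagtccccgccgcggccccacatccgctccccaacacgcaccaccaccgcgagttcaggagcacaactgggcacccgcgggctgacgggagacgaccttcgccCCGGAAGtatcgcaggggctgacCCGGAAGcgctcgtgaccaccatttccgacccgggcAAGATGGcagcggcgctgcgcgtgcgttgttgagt

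In TOMM20 the NRF1 letters begin 101 bases before the start and the ETS letters 22 bases before it. The ETS letters of NDUFA13 begin 10 bases before the start, and the NRF1 letters of UQCR10 begin 8 bases before it. UQCC2 has NRF1 letters from 104 and from 48 bases before the start and YY1 letters from 11 bases after it. MRPL20 holds all 3 kinds, with YY1 letters from 15 bases after the start. TOMM20, the higher member, carried NRF1 and ETS letters, as did MRPL20 among the lower members shown. Of these kinds, NDUFA13 had ETS letters alone, and UQCR10 and UQCC2 had NRF1 letters alone. All the members shown were picked for carrying NRF1, ETS or YY1 letters, so such matches were fixed by the choice and say nothing on direction.

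Windows were found for 36 of the 41 members (not for NDUFC2, ATP5MF, TIMM8B, UQCC3 and MRPS28), and 19 of them held at least 1 of the 3 kinds. NRF1 letters were in 11 windows (30.6%), against 16.5% of the windows of 798 other genes called lower and 12.5% of all 27305 windows. ETS letters were in 9 (25%), against 13.3% and 10.7%, and YY1 letters were in 6 (16.7%), against 5.14% and 6.06%. The core of the HIF site, ACGTG, was in 8 windows (22.2%), against 25.3% of other genes called lower and 21.6% of all windows. The SP1 box GGGCGG was in 22 (61.1%, against 69.3% and 44.6%) and the box CCAAT in 8 (22.2%, against 37.3% and 35.7%). Each motif was searched on both strands, the ETS and YY1 letters can lie within 1 window with NRF1 letters, and a match is a run of letters and not a bound site. These shares were not tested.

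**Figure D3:**
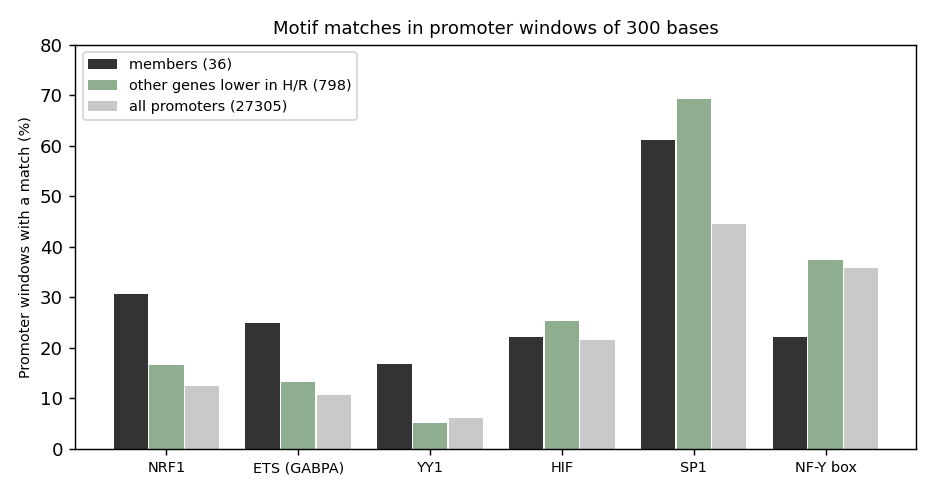
Share of promoter windows of 300 bases with at least 1 match to each motif, for the members (black), other genes called lower after H/R (green) and all windows (grey). The members stand above both other bars for NRF1, ETS and YY1 letters and not for the HIF, SP1 and CCAAT (NF-Y) letters.

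Complex I takes electrons from NADH, and all 14 of its subunit genes with a row were called lower, with log2 differences from -1.69 (NDUFA7) to -0.90 (NDUFC1). NDUFA2, an accessory subunit of the matrix arm, had 455, 401 and 325 FPKM in H/R replicates 1 to 3, against 843, 809.7 and 758 FPKM in control replicates 1 to 3. It was the most abundant subunit gene per transcript length in both groups (394 ± 65.3 FPKM in H/R and 804 ± 43.2 FPKM in control, SD, n = 3 each), and its log2 difference was -1.04 ± 0.17 (SE). The next, NDUFA13, an accessory subunit that is also known as a regulator of cell death, had 283, 237 and 233 FPKM in the H/R samples, against 933, 752 and 678 FPKM in the controls and a larger difference of -1.64 ± 0.18. NDUFA11, which sits in the membrane arm, had 216, 208 and 189 FPKM in the H/R samples, against 633, 486 and 426 FPKM in the controls. The replicates of NDUFA11 lay close together in H/R (204 ± 14 FPKM in H/R and 515 ± 106 FPKM in control), and its difference was -1.31 ± 0.18. NDUFA7, an accessory subunit of the matrix arm, had 30.9, 48.6 and 38.9 FPKM in the H/R samples, against 114, 155 and 117 FPKM in the controls. It had the lowest mean level among the 14 in H/R (39.5 FPKM) and the largest difference, -1.69 ± 0.21.

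The other 10 subunit genes had means from 44.2 to 217.2 FPKM in H/R and from 118.2 to 487.6 FPKM in control. NDUFS7 and NDUFS8, which hold iron-sulfur clusters on the path of the electrons, had differences of -1.19 ± 0.21 and -1.16 ± 0.19. NDUFS8 had 240.4, 216 and 189 FPKM in the H/R samples, against 597, 479 and 387 FPKM in the controls. Of the membrane arm genes, NDUFB2 (152 ± 21.6 FPKM in H/R and 467 ± 45.1 FPKM in control) had -1.62 ± 0.17, NDUFB7 -1.36 ± 0.21, NDUFB3 -1.12 ± 0.19 and NDUFB10 -0.97 ± 0.17. NDUFC2 (-1.16 ± 0.17), NDUFC1 (-0.90 ± 0.18) and the accessory gene NDUFS6 (-1.08 ± 0.17) were lower too. NDUFA3 (44.2 ± 2.21 FPKM in H/R and 118 ± 15.6 FPKM in control, difference -1.39 ± 0.17) had 9 further numbered rows with identical values among themselves, so how its reads were divided among the copies is uncertain. In none of the 14 did a sample of H/R reach a control sample.

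Among the assembly genes of complex I, NDUFAF8, a partner of the enzyme NDUFAF5 that modifies NDUFS7, had 119.9, 102 and 45.5 FPKM in the H/R samples, against 403, 225 and 256 FPKM in the controls. Its difference of -1.78 ± 0.35 was the most negative of the 41 members and also had a wide error, with H/R replicate 3 far under the others. NDUFAF3, which acts early in building the matrix arm, had 43.7, 42.2 and 37.1 FPKM in the H/R samples, against 116, 97.01 and 68.9 FPKM in the controls (-1.15 ± 0.21). NDUFAF1, an early assembly factor of the membrane arm, was the lowest member of all (5.13 ± 0.866 FPKM in H/R and 12.6 ± 4.82 FPKM in control, -1.10 ± 0.28), with 4.84, 4.44 and 6.10 FPKM in the H/R samples, against 8.16, 12.03 and 17.8 FPKM in the controls. The gene TIMMDC1 is named with the TIMM prefix but also encodes a complex I assembly factor, and it had 18.7, 18.8 and 16.7 FPKM in the H/R samples, against 25.6, 46.7 and 43.7 FPKM in the controls (-1.01 ± 0.24). Its control replicate 1 stood well under the other controls and still above every H/R sample.

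Complex III passes electrons from ubiquinol to cytochrome c. UQCR10, a small subunit of this complex, had 503, 454 and 387 FPKM in the H/R samples, against 1177, 1356 and 1302 FPKM in the controls. UQCRQ, a subunit near the ubiquinone site, had 341, 318 and 289 FPKM in the H/R samples, against 983, 812 and 712 FPKM in the controls. Their differences, -1.52 ± 0.16 and -1.39 ± 0.17, were both larger than the median member. The assembly genes UQCC2 and UQCC3 act on cytochrome b, the mitochondrially encoded subunit. UQCC2 had 70.5, 75.2 and 67.3 FPKM in the H/R samples, against 210.1, 167 and 184 FPKM in the controls (-1.38 ± 0.16), and UQCC3 had 118, 102 and 97.2 FPKM in the H/R samples, against 222, 189 and 189.8 FPKM in the controls (-0.92 ± 0.17).

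The ATP synthase genes held the highest level of the set and its only uncalled member. ATP5F1E, the epsilon subunit of the central stalk, had 618, 1070.4 and 1267 FPKM in the H/R samples, against 2081, 2597 and 2779 FPKM in the controls. With 985 ± 333 FPKM in H/R and 2486 ± 362 FPKM in control it had the highest mean of the 41 members in both groups, and its difference was -1.39 ± 0.26. ATP5MF, the f subunit of the membrane part, had 451, 412 and 394 FPKM in the H/R samples, against 1801, 989.7 and 923 FPKM in the controls (-1.50 ± 0.24). Its control replicate 1 was far above the other controls, and all controls were above all H/R samples. ATP5MC1, which encodes the c subunit of the rotating ring, had 372, 451 and 298 FPKM in the H/R samples, against 787, 784 and 659 FPKM in the controls (-1.01 ± 0.19).

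ATP5MPL, a small proteolipid subunit of the ATP synthase, was the one member whose groups overlapped, with 200.01, 63.3 and 74.8 FPKM in the H/R samples, against 148, 173 and 195 FPKM in the controls. Its H/R replicate 1 was the highest of the 6 samples, and the other H/R samples were the lowest. The difference was -0.79 ± 0.37 (SE). Without H/R replicate 1 the difference was -1.30 and ATP5MPL was called lower, while it was -0.48 without H/R replicate 2 and -0.60 without H/R replicate 3, with no call in either case. In H/R replicate 1 ATP5F1E was the lowest of its group. The summed level of the 4 ATP synthase genes was also the lowest of the H/R libraries there (1641 FPKM, against 1996 and 2034 FPKM in H/R replicates 2 and 3). ATP5F1E had the largest part of that sum, and the other genes did not share its order. ATP5MF (451, 412 and 394 FPKM in H/R replicates 1 to 3) was highest in H/R replicate 1, and ATP5MC1 (372, 451 and 298 FPKM) lay between its other H/R values.

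TOMM20 was the only member called higher. Its product is the receptor of the outer membrane that recognises the presequences of imported proteins. TOMM20 had 319.6, 353 and 394 FPKM in H/R replicates 1 to 3, against 106, 166 and 179 FPKM in control replicates 1 to 3. All H/R samples were above all controls, with 356 ± 37.4 FPKM in H/R and 151 ± 39.02 FPKM in control (SD, n = 3 each), a ratio of 2.36 and a log2 difference of 1.27 ± 0.22 (SE). It was the 1 TOMM gene with a row, so the other parts of the TOM complex were not analysed here. Its transcripts are AT-rich for this set (41.4% GC) and the longest of the members, with a median length of 3387 bp. The name of TOMM20 has 4 numbered pseudogenes in GENCODE, and reads shared with such copies could change its level by an amount that was not tested.

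The TIMM genes of the inner membrane side went the other way. TIMM8B, a small chaperone of the space between the membranes, had 524, 438 and 459 FPKM in the H/R samples, against 996, 804 and 812 FPKM in the controls (-0.87 ± 0.16). TIMM17B, a part of the TIM23 channel, had 106, 131 and 104 FPKM in the H/R samples, against 302, 208 and 176 FPKM in the controls (-0.97 ± 0.22). Both calls ended under median-of-ratios scaling, where the differences were -0.37 for TIMM8B and -0.47 for TIMM17B.

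**Figure D4:**
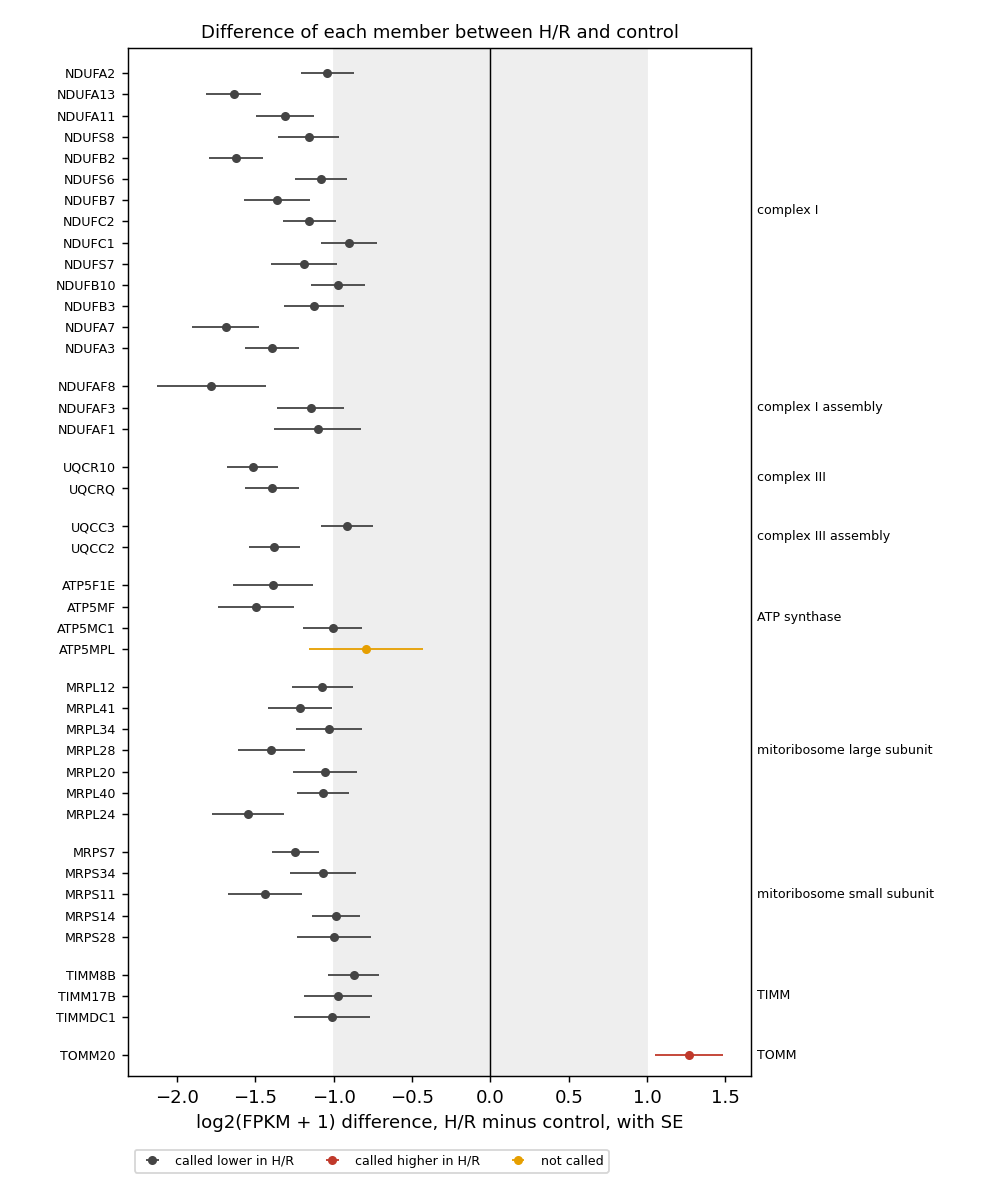
Log2(FPKM + 1) difference, H/R minus control, of each member with its SE as a bar, by complex, and changes under 2-fold shaded. The points of 39 members called lower lie between -1.78 and -0.87, ATP5MPL (orange, not called) is at -0.79 and TOMM20 (red) at 1.27.

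The mitoribosome makes the subunits that mitochondrial DNA encodes. All 7 large-subunit genes and all 5 small-subunit genes with a row were called lower, with median differences of -1.07 for each subunit. MRPL12, which also binds the mitochondrial RNA polymerase, had 172, 145 and 140.1 FPKM in the H/R samples, against 409, 306 and 262 FPKM in the controls (-1.07 ± 0.20). MRPL41 had 124, 152 and 118 FPKM in the H/R samples, against 397, 280.2 and 253 FPKM in the controls (-1.22 ± 0.21), and MRPL34 had 74.9, 63.8 and 97.01 FPKM in the H/R samples, against 195, 156 and 133 FPKM in the controls (-1.03 ± 0.21). These 3 were the most abundant large-subunit genes, and in each control replicate 1 was the highest of its group. The largest differences of the subunit were in MRPL24, with 27.6, 19.9 and 20.9 FPKM in the H/R samples, against 90.96, 61.4 and 55.99 FPKM in the controls (-1.55 ± 0.23), and MRPL28, with 60.8, 54.1 and 41.4 FPKM in the H/R samples, against 172, 129.5 and 116 FPKM in the controls (-1.40 ± 0.21). MRPL20 and MRPL40 had differences of -1.06 and -1.07.

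Of the small-subunit genes, MRPS7, a protein of the head of the subunit, had 109.9, 101 and 108 FPKM in the H/R samples, against 243, 261 and 257 FPKM in the controls (-1.25 ± 0.15). MRPS34 had 102, 62.2 and 75.3 FPKM in the H/R samples, against 191, 156 and 150.1 FPKM in the controls (-1.07 ± 0.21), and MRPS11, which lies on the platform, had 57.9, 43.5 and 40.1 FPKM in the H/R samples, against 172, 121 and 100.3 FPKM in the controls (-1.44 ± 0.23). MRPS14 had the smallest relative spread of these genes, with 60.02, 57.97 and 59.7 FPKM in the H/R samples, against 119.9, 115 and 119 FPKM in the controls. That amounts to 59.2 ± 1.09 FPKM in H/R and 118 ± 2.33 FPKM in control and a difference of -0.98 ± 0.15. MRPS28 (-0.998 ± 0.24) had the widest relative spread among its controls, with 35.9, 35.1 and 40.7 FPKM in the H/R samples, against 52, 85.4 and 95.6 FPKM in the controls.

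Levels were also summed over the members of each complex. Complex I subunits summed to 2422, 2260 and 2106 FPKM in H/R, against 6194, 5207 and 4864 FPKM in control, a ratio of 0.417. The ratio was 0.361 for complex III, 0.407 for the ATP synthase, 0.441 for the large and 0.442 for the small mitoribosome subunit, and 0.532 for TIMM. These sums cover members with a row and not whole complexes.

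Within a group, many members shared the order of the libraries. Among the 39 members called lower, control replicate 1 was the highest control in 27 and control replicate 3 the lowest in 21. In H/R, replicate 1 was the highest in 22 and replicate 3 the lowest in 25. The deviation of a library from its group mean was related to the GC content of the transcripts, most in the controls. Over the 41 members, Pearson's r with GC was 0.20, 0.19 and -0.37 for H/R replicates 1 to 3, and 0.63, -0.23 and -0.72 for control replicates 1 to 3. The points of each correlation share a library and are no independent replicates. Deviations cancel out within a group, so an upward tilt in a library is matched by a downward tilt elsewhere in its group. Over all rows the slopes on GC ran in the same directions in the libraries numbered 1 and 3, so this spread was not limited to the members.

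**Figure D5:**
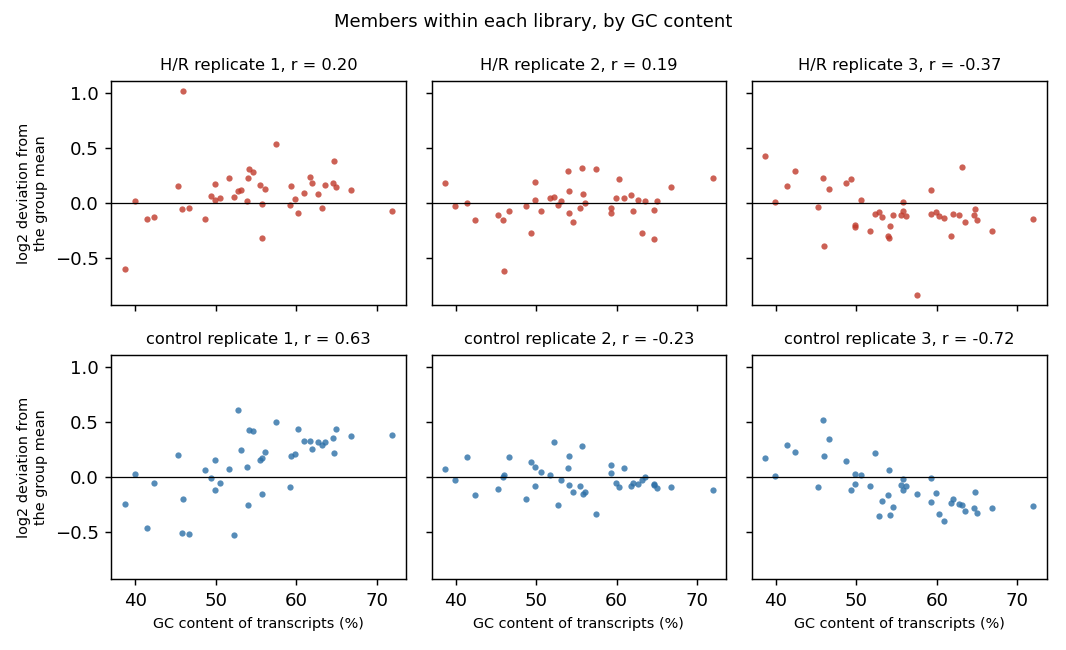
Deviation of each member from its group mean on the log2(FPKM + 1) scale against the median GC content of its protein-coding transcripts, with 1 panel per library, H/R above and control below. Control replicate 1 tilts upward (r = 0.63) and control replicate 3 downward (r = -0.72), and the H/R libraries tilt less. Deviations cancel out within a group, so opposite tilts are not separate findings.

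The members' transcripts had a median GC content of 54.6% and a median length of 791 bp, against 57.2% and 1445 bp in the other rows called lower and 47.4% and 2208 bp in the rows called higher. The difference between H/R and control had a correlation with GC over the 41 members of -0.306 (Pearson's r) and -0.252 (Spearman's rho), a description over genes of the same libraries. With log2 transcript length the correlation was 0.461 (Pearson's r) and 0.221 (Spearman's rho), where TOMM20 is both the longest member and the only higher one. Members at the AT-rich end went both ways, with ATP5F1E (38.7% GC), MRPS14 (39.9%) and NDUFB3 (42.3%) lower and TOMM20 higher. Leaving out control replicate 1 left 39 members called lower, of which 27 were at least 2-fold lower. The part of GC content or transcript length in the differences was not tested. The members were highly expressed among these rows, with a median over members of 112.7 FPKM in H/R and 228.8 FPKM in control, against 13.8 and 12.5 FPKM over all rows tested.

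The members lie on 18 chromosomes, with 7 (17.1%) on chromosome 19, against 7.43% of the tested rows with a RefSeq match. In GENCODE, 24 members share exon bases with another protein-coding gene, and in 7 the largest such overlap covers over 25% of the exon bases, among them MRPL12 (68.2%) and NDUFA7 (32.3%, with the ribosomal protein gene RPS28 on the opposite strand among its partners). The library kit is not stated to keep the strand, so the reads of partners on the opposite strand cannot be told apart. The partner of MRPL12 lies on the same strand, where keeping the strand would not separate the reads. At least 1 numbered pseudogene is named for 13 members.

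Other genes of mitochondrial respiration were read from lists outside the prefixes. Over all rows tested, 52.9% were called lower and 46.1% higher, and 2013 of 2034 were called either way. Having a row rests on the same comparison, so the counts of calls here and in the lists that follow are descriptions. Of 48 further assembly factors, 7 had a row and all 7 were called lower. They were the complex IV factors COA3 and COA4 and TACO1, a translational activator of a complex IV subunit, the complex III translocase BCS1L, the complex I factor DMAC1 and the ATP synthase factors ATPAF1 and ATPAF2. COA3 had 94.8, 89.3 and 94.7 FPKM in the H/R samples, against 208, 208 and 195 FPKM in the controls (-1.12 ± 0.15), and TACO1 had 35.99, 27.2 and 26.2 FPKM in the H/R samples, against 76.6, 71.7 and 62.2 FPKM in the controls (-1.22 ± 0.19). COA4 and DMAC1 had differences of -1.04 ± 0.17 and -1.03 ± 0.22. Of 9 listed electron carriers and chain genes outside the prefixes, 3 that feed the ubiquinone pool had a row, with DHODH (-1.21 ± 0.24), the electron transfer flavoprotein gene ETFB (-1.04 ± 0.18) and ETFDH (-0.95 ± 0.26) called lower. Of 20 genes of the citric acid cycle and pyruvate oxidation, SUCLG1 (-1.19 ± 0.20) and the pyruvate carrier gene MPC2 (-1.04 ± 0.16) had a row and were called lower.

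Of 29 genes of import and inner membrane organisation, 5 had a row, of which 4 were called lower and GRPEL2 was called higher. GRPEL2, a nucleotide exchange factor of the mitochondrial import motor, had 29.5, 36.6 and 38.3 FPKM in the H/R samples, against 7.30, 11.2 and 15.1 FPKM in the controls (1.60 ± 0.26), and like TOMM20 it acts in protein import. ROMO1, an inner membrane protein, had 807, 961 and 977 FPKM in the H/R samples, against 1981, 1726 and 1587 FPKM in the controls (-0.95 ± 0.16), MICOS13 of the cristae junctions had a difference of -1.14 ± 0.22 and IMMP2L one of -0.71 ± 0.30, with overlapping groups. MTX1 was present as a numbered copy alone (-2.10 ± 0.30), so its level is uncertain. Of 18 regulators of mitochondrial biogenesis, 1 had a row, the helicase gene TWNK, which was called higher with 52.6, 36.5 and 39.6 FPKM in the H/R samples, against 25.5, 24.97 and 20.2 FPKM in the controls (0.83 ± 0.20).

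Of 10 genes listed as HIF targets with a link to mitochondria, 4 had a row and all 4 were called higher. PDK1 was higher by 3.51 ± 0.35, BNIP3 by 2.90 ± 0.20, BNIP3L by 1.85 ± 0.23 and MXI1 by 1.27 ± 0.26. Over all rows tested, 46.1% were called higher, and the part of HIF in these differences was not tested. Of 48 mitochondrial carrier genes, 13 had a row, with 8 called lower and 5 higher. The carnitine carrier gene SLC25A20 had 11.9, 11.98 and 11.3 FPKM in the H/R samples, against 54.8, 65.5 and 56.3 FPKM in the controls (-2.23 ± 0.18). The dicarboxylate carrier gene SLC25A10 had a difference of -1.75 ± 0.27 and the citrate carrier gene SLC25A1 one of -1.28 ± 0.19. Of the 5 called higher, SLC25A25 (1.42 ± 0.21), SLC25A24 (1.25 ± 0.29) and SLC25A32 (1.20 ± 0.21) had groups that did not overlap, while those of SLC25A36 (1.10 ± 0.33) and SLC25A30 (0.93 ± 0.38) did.

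No gene of the mitochondrial genome, of 34 listed mitochondrial translation and mitoribosome assembly factors or of 40 proteasome genes had a row among those analysed here. Of 84 cytosolic ribosomal protein genes, the paralog RPL22L1 had one and was called higher (1.80 ± 0.21). Of 12 mitochondrial protease and prohibitin genes, OMA1 had a row and was under the minimum of 1 FPKM. Caco-2 epithelial markers had 4 rows of 12, of which FABP1 and ALPI were tested and called lower (-1.08 ± 0.19 and -1.07 ± 0.19). The other epithelial markers with a row were under the minimum of 1 FPKM. The table thus does not allow a full check of the labelled cell type. Of the markers of other cells, 2 of 8 fibroblast, 1 of 7 endothelial and 1 of 7 immune genes had a row. PDGFRA (1.51 ± 0.31) and ESAM (1.07 ± 0.22) were called higher and COL1A1 (-1.04 ± 0.19) and CD14 (-1.15 ± 0.22) lower, and their part in the members' differences was not tested.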

How the data were processed

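The authors deposited 1 table of log2 values per gene and sample, log2(FPKM + 1) of FPKM rounded to 0.01 (100% of values within 1e-05 FPKM). The sources used here do not give the aligner or the counting method. Mouse builds (GRCm38, mm10) stand in the submitters' processing notes, although the symbols are human. Groups and replicate numbers came from the titles. Copies of a symbol with identical values were counted once (51 rows removed), and of 2206 rows the 2034 with a mean of at least 1 FPKM were tested. limma version 3.58.1 in R version 4.3.3 was fitted to log2(FPKM + 1) with group only, a two-sided moderated test with a trend of variance on mean, and Benjamini-Hochberg adjustment at 0.05. The pseudocount of 1 FPKM understates changes of low genes. The fit was also run on simulated data in which few of the rows were changed. The rows here are selected, so that run gives no error rate for them. Alternatives were a pseudocount of 0.1 FPKM, no minimum, 2 rescalings, an ordinary linear model, summed copies, a replicate block and leaving out each library.

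A member with several rows was taken in its row with the highest mean. Members, lists and motifs were chosen with earlier results of these data known. Values in every sample are given, per complex, for up to 3 members with the highest mean, up to 2 with the largest difference and all that overlap or go the other way, and further ones such as NDUFS8, MRPS14 and MRPS28 were added after their values were seen. GC content and length are medians over protein-coding transcripts of GENCODE (release 29), promoters are RefSeq (GRCh38.p14), with 40 members matched by symbol and 1 by a synonym.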

Additional observations from a re-analysis of the deposited data

How the results depend on the processing

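The median log2 difference of the members, -1.15, was -0.80 with libraries scaled to equal totals and -0.65 with median-of-ratios scaling. Neither scaling rests on all genes, since the table holds selected rows. At least 2-fold lower were 32 members, against 14 with equal totals and 6 by median of ratios, and 816 rows of the whole table, against 386 and 257. Under median-of-ratios scaling 33 of 41 members were called, against 40, and 1804 of 2034 rows of the table (948 higher, 856 lower), against 2013 (937 higher, 1076 lower). Under every alternative run all 41 differences kept their sign. Leaving out 1 library at a time gave 40 to 41 calls, 27 to 34 members at least 2-fold lower and medians from -1.22 to -1.14. The lowest 2-fold count came without control replicate 1. ATP5MPL was called with the replicate block and without H/R replicate 1, and not under the other alternatives. The block gave 41 calls among the members and changed no other member's call. Deviations of same-numbered libraries correlated at 0.497, 0.0725 and 0.522 for numbers 1, 2 and 3. The correlation was -0.498 for H/R replicate 1 with control replicate 3 and -0.487 for H/R replicate 3 with control replicate 1. In each row the 3 deviations of a group cancel out, so these correlations are tied to each other and are not separate observations. In them the libraries numbered 1 and 3 shared part of their spread across the groups, from a source that was not tested. Only H/R replicate 2 correlated better with another number (0.105 with control replicate 3). The study's methods name an unpaired test for comparing groups in general and state no model for the sequenced samples. The main fit used group only, with the block as an alternative. With another pseudocount, no minimum, an ordinary linear model or summed copies, 40 members were called. Depth is unknown, so no counting error could be given.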
